A study of Mus musculus with 6 samples.

Results

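Matrix metalloproteases (MMPs), ADAMTS proteases and their tissue inhibitors (TIMPs) were followed in epididymal white adipose tissue (eWAT) of obese mice that had received Lmo3. Members were genes whose symbol begins with Mmp, Timp or Adamts and a number, or with Adamtsl, and 1 MMP gene was left out by the rule that defines the set. This gave 48 of the 19938 genes that the array measured with at least 1 probe set of a single symbol. They comprised 4 TIMPs, 21 MMPs, 18 ADAMTS proteases and 5 ADAMTS-like proteins. Mmp15 and Adamts2 were not analysed here, since no probe set carried their symbol alone.

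eWAT, a visceral fat depot, came from male mice of the C57BL6/J strain, which received high-fat diet (HFD) over 12 weeks, begun at an age of 6 weeks. A recombinant adeno-associated virus (rAAV) of the Rec2 serotype had been injected into the fat pads of every mouse. It carried Lmo3, which encodes a LIM-domain cofactor of transcription, or, in controls, YFP, a yellow fluorescent protein, and is written rAAV-Lmo3 or rAAV-YFP. The transgene was driven by the CMV enhancer and the chicken β-actin (CBA) promoter, and arrays of whole tissue do not show which cells expressed it. Each group held 3 Affymetrix arrays, and an array stands for the pooled RNA of 2 mice.

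The arrays gave RMA intensities, brightness values summarised per probe set, with medians between 123 and 127.5. The Lmo3 probe set read 24 to 25 on the rAAV-YFP arrays and 24 to 26 on the rAAV-Lmo3 arrays, far below the dim limit of 114. These arrays thus did not show the Lmo3 transgene, and this probe set checks no label. Why it did not register was not tested. The adipocyte markers Adipoq, Plin1, Cidec, Lep, Fabp4 and Lipe were all above that limit, and none of 4 measured epididymis markers was. The arrays rAAV-YFP 2 and rAAV-Lmo3 1 stood apart, with mean correlations to the others of 0.988 and 0.986 where the remaining arrays had 0.990 to 0.991. Without both, 4 of the 28 tested members changed sign, and the members most affected are given with both values. In bulk tissue, fewer cells of a type and less RNA per cell cannot be told apart.

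MMPs and ADAMTS proteases are zinc-dependent enzymes that cut collagens, proteoglycans and other proteins of the extracellular matrix, which adipose tissue rebuilds as adipocytes enlarge. TIMPs bind to the active site of MMPs and block it. TIMP3 differs from the other TIMPs in that it is held in the matrix. It also inhibits membrane-bound ADAM proteases, among them the TNF-releasing enzyme ADAM17, and the proteoglycan-cleaving ADAMTS4 and ADAMTS5.

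The TIMPs lie on different chromosomes, and their promoters are shown because the data compare these genes with each other. Each line holds the 250 bases upstream of the start site on the gene's own strand, from RefSeq on GRCm38.p6, with GC boxes (GGGCGG on either strand) in capitals. The windows are chrX:20869916-20870165 (plus strand, Timp1), chr11:118355412-118355661 (minus strand, Timp2), chr10:86300162-86300411 (plus strand, Timp3) and chr6:115252206-115252455 (minus strand, Timp4).
Timp1: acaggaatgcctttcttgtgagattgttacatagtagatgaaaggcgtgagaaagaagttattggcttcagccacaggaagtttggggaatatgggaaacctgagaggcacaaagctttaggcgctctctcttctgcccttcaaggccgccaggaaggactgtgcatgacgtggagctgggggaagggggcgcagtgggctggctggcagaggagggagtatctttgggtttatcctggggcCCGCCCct
Timp2: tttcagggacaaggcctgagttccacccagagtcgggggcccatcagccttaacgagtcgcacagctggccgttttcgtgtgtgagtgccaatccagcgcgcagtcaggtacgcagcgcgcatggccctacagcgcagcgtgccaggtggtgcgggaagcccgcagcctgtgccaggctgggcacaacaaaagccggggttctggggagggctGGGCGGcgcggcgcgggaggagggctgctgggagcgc
Timp3: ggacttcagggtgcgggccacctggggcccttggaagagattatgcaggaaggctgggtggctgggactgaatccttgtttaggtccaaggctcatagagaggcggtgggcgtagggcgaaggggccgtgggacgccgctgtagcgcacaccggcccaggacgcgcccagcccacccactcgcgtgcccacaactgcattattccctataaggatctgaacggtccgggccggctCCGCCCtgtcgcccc
Timp4: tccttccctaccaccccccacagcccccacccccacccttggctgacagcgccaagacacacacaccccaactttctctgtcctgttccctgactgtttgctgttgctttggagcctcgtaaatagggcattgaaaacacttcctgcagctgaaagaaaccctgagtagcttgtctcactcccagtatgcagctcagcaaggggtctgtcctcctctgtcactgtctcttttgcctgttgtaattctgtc
A GC box began at -8 in Timp1, at -37 in Timp2 and at -15 in Timp3, and none was found in the Timp4 window. GC content was 54.4% for Timp1, 68.0% for Timp2, 65.6% for Timp3 and 53.6% for Timp4. Of 32851 mouse promoter windows of this length, 32.7% held a GC box. The AP-1 motif TGANTCA (6.7% of all windows) and the TATA motif TATAAA (12.4%) were in none of the TIMP windows, and the TEAD motif GGAATG (12.6%) occurred in that of Timp1 at -247. The motifs were searched on both strands, and these matches describe letters in a window. Of the 48 members, 33 had a promoter entry.

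Among the members, Timp3 separated the groups most clearly. Its intensity was 2467, 2891 and 2719 with rAAV-YFP and 1758, 1708 and 1643 with rAAV-Lmo3. Every rAAV-Lmo3 array lay below every rAAV-YFP array. On the log2 scale the difference, always given as rAAV-Lmo3 minus rAAV-YFP, was -0.66 ± 0.09 (SE, n = 3 pools per group; 95% interval -0.87 to -0.45), or 1.58-fold lower. Its unadjusted p in limma was 0.000168, the 3rd smallest of 11963 genes tested, and its Benjamini-Hochberg adjusted p was 0.669. The adjusted test was thus not passed by Timp3, nor by any other gene, since 0.669 was also the smallest adjusted p. The exact permutation test over the arrays gave p = 0.1, the smallest that 3 arrays against 3 allow.

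Timp2, the TIMP that works with MMP14 in activating pro-MMP2, read 3796, 2532 and 2946 with rAAV-YFP and 2767, 2766 and 3581 with rAAV-Lmo3. The groups overlapped, and the log2 difference was -0.02 ± 0.18 with a 95% interval from -0.44 to 0.40. The sign of this value turned when each array was centred on its median (0.0074).

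Timp1, a secreted inhibitor of most MMPs, read 448, 88 and 310 with rAAV-YFP and 143, 525 and 498 with rAAV-Lmo3. Its groups overlapped, with the lowest array of each group far from the rest of that group. The log2 difference was 0.54 ± 0.73 (unadjusted p = 0.485 in limma; 95% interval -1.20 to 2.27).

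Timp4, the inhibitor typical of heart and fat, was highest on the arrays where Timp1 was lowest. It read 1442, 3187 and 1727 with rAAV-YFP and 2439, 773 and 492 with rAAV-Lmo3. Array rAAV-Lmo3 1 lay among the rAAV-YFP values, and the other rAAV-Lmo3 arrays lay below all of them. The log2 difference of -1.03 ± 0.60 had an unadjusted p of 0.130 in limma and a 95% interval from -2.46 to 0.39. It was -0.54 without rAAV-Lmo3 3 and -1.69 without rAAV-Lmo3 1. In size it exceeded the Timp3 difference with all arrays and fell short of it without rAAV-Lmo3 3.

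**Figure D1:**
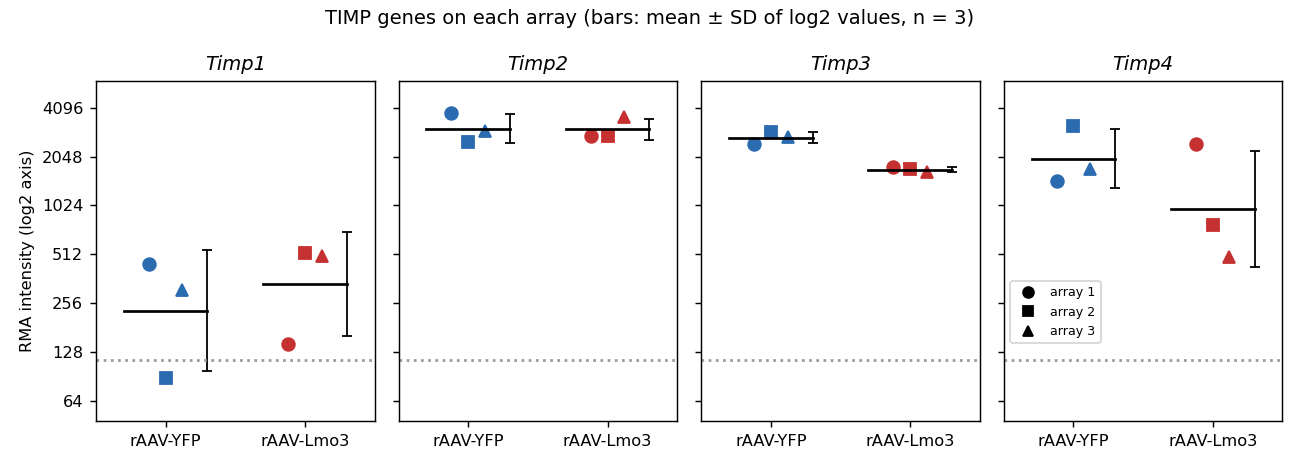
RMA intensity (vertical log2 axis) of the TIMP genes on each array, with the mean ± SD of the log2 values per group (n = 3) and the dim limit of 114 as a dotted line; marker shape gives the array number. The Timp3 values of 1643 to 1758 on the rAAV-Lmo3 arrays lie below those of 2467 to 2891 on the rAAV-YFP arrays, whereas the groups overlap for the other TIMPs.

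Arrays rAAV-YFP 2 and rAAV-Lmo3 1 held the lowest Timp1 value of their group and the highest Timp4 value. Timp1 on rAAV-YFP 2 lay at -2.08 on the log2 scale relative to the mean of the other rAAV-YFP arrays, and on rAAV-Lmo3 1 at -1.84 relative to the other rAAV-Lmo3 arrays. For Timp4 these deviations were 1.01 and 1.98, and for Timp3 they were 0.16 and 0.07. The score of the macrophage marker list (6 of 6 markers above the dim limit, mean of log2 values centred per gene) was also lowest on these arrays. It was 0.48, -0.78 and 0.03 with rAAV-YFP and -0.51, 0.30 and 0.48 with rAAV-Lmo3. The adipocyte score was the highest of its group on both, at -0.04, 0.15 and 0.03 with rAAV-YFP and 0.05, -0.04 and -0.16 with rAAV-Lmo3. Lists of ADAM proteases, plasminogen system genes and other inhibitors and activators also scored lowest of their group on both arrays. The part of any of these lists in the TIMP values was not tested.

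With both arrays left out, an alternative added after seeing the data, Timp4 was lower by -1.36 ± 0.22 on the log2 scale (unadjusted p = 0.00105, adjusted p = 0.529 in limma) and its groups no longer overlapped. Timp1 was then higher by 0.46 ± 0.18 (unadjusted p = 0.0441, adjusted p = 1 in limma), also without overlap. Timp3 differed by -0.63 ± 0.09 without them (adjusted p = 0.460 in limma), and by -0.72 to -0.61 when any 1 array was left out. With both arrays left out, 16.7% of all genes tested were lower without overlap and 13.4% were higher. The overlap of Timp4 had rested on rAAV-Lmo3 1, 1 of the arrays left out. Both arrays held the highest Timp4 and the lowest Timp1 value of their group. Leaving them out therefore narrows the spread of these genes within each group, and the SE and p then rest on fewer pools.

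**Figure D2:**
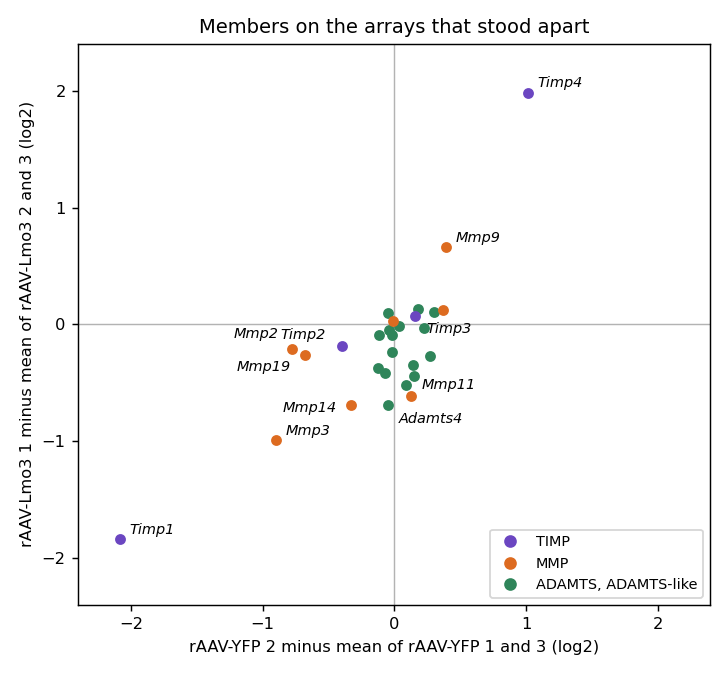
Deviation (log2) of the 28 tested members on rAAV-YFP 2 from the other rAAV-YFP arrays (horizontal) and on rAAV-Lmo3 1 from the other rAAV-Lmo3 arrays (vertical), 1 point per gene, coloured by family. Timp1 lies at -2.08 and -1.84 and Timp4 at 1.01 and 1.98, whereas Timp3 lies close to the origin.

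Of the 28 tested members, 13 (46.4%) lay lower on both of these arrays than on the rest of their group, against 35.1% of all genes tested. Another 6 (21.4%) lay higher on both, against 32.8% of all genes. Mmp3 deviated by -0.90 on rAAV-YFP 2 and by -0.99 on rAAV-Lmo3 1, and Mmp9 by 0.39 and 0.66. Without both arrays the difference between the groups was -0.22 for Mmp9, 0.43 for Mmp11, 0.18 for Mmp14 and 0.25 for Adamts12.

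The log2 ratio of Timp3 to a second gene was taken on each array and compared between the groups, for the other TIMPs and for 11 target proteases that were bright enough to be tested. Such a ratio between probe sets shows unequal difference and not relative amounts. The ratio of Timp3 to Timp2 differed by -0.64 ± 0.28 (SE, n = 3) with groups that did not overlap. To Timp1 it differed by -1.20 ± 1.00 and to Timp4 by 0.37 ± 0.72, both with overlap. Across the targets the ratio was below 0 for 11 of 11, and for 6 of them every rAAV-Lmo3 array lay below every rAAV-YFP array. The 14 ratios all contain Timp3 and are therefore not separate results. Timp3 itself was lower by -0.66 without overlap, so its ratio to a gene without a difference also lies below 0. The share over all genes was not computed, so these counts say nothing particular about the targets.

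The tightest ratio was that to Adam33, a membrane-bound ADAM protease, at -0.60 ± 0.04. The ratios to Mmp2 (-0.94 ± 0.42), Mmp9 (-0.53 ± 0.22), Adam12 (-1.50 ± 0.47), Adam17 (-0.86 ± 0.37) and Adamts4 (-0.71 ± 0.28) also separated the groups. The exact permutation p of these 6 and of the ratio to Timp2 was 0.1, or 0.2 after Benjamini-Hochberg adjustment over the 14 pairs, so no pair passed. With overlapping groups, the ratio differed by -0.98 ± 0.55 to Mmp3, -0.72 ± 0.37 to Mmp14, -0.58 ± 0.27 to Adam10, -0.36 ± 0.45 to Adamts1 and -0.25 ± 0.19 to Adamts5.

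**Figure D3:**
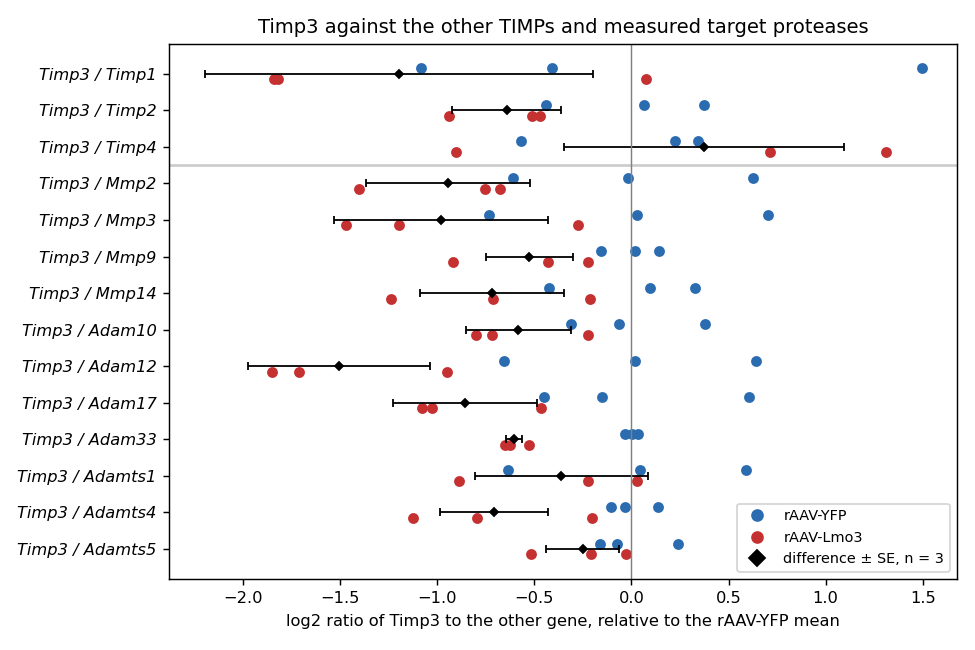
Log2 ratio of Timp3 to each other TIMP and to each of 11 tested target proteases on each array, relative to the rAAV-YFP mean (horizontal axis, log2 units; diamonds, difference ± SE, n = 3 per group). All 11 target ratios lie below 0, from -0.25 for Adamts5 to -1.50 for Adam12, and the ratio to Adam33 has the smallest spread. Each ratio contains Timp3, which was itself lower, so the shared sign says nothing particular about the targets.

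The target proteases themselves showed no common direction. Of 16 listed, 15 had a probe set, 11 were tested, 6 of these lay above 0 and 5 below, and the median difference was 0.05. Adam12, a membrane-bound disintegrin protease, read 544, 259 and 375 with rAAV-YFP and 475, 782 and 827 with rAAV-Lmo3. It was the 1 target with an unadjusted p under 0.05 (difference 0.85 ± 0.32, unadjusted p = 0.0329, adjusted p = 0.970 in limma), and rAAV-Lmo3 1 overlapped with the controls. Of all genes tested, 4.66% had an unadjusted p under 0.05 in limma. Adam17 differed by 0.20 ± 0.25 (95% interval -0.39 to 0.79), Adam10 by -0.08 ± 0.17 and Adam33 by -0.05 ± 0.09.

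Among proteins that bind TIMP3, Efemp1 (fibulin-3, a matrix glycoprotein) read 1865, 2168 and 1991 with rAAV-YFP and 1714, 1424 and 1533 with rAAV-Lmo3. No rAAV-Lmo3 array reached a rAAV-YFP value, and the difference was -0.37 ± 0.10 (unadjusted p = 0.00948, adjusted p = 0.970 in limma). Of all genes tested, 5.95% were likewise lower without overlap, and 4.66% had an unadjusted p under 0.05 in limma. Lrp1, the receptor that takes up TIMP3 from the matrix, differed by -0.21 ± 0.14, and Kdr, the VEGF receptor that TIMP3 blocks, by -0.01 ± 0.20, both with overlap. Agtr2 was below the dim limit. Timp1, Timp3 and Timp4 each lie within the span of a synapsin gene. Timp4 lies within Syn2, which differed by -0.03 ± 0.08, Timp1 within Syn1 (0.02 ± 0.14), and Timp3 within Syn3, which was below the dim limit with intensities of 63 to 81.

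Over all tested members, 17 of 28 lay below 0 and 11 above. The median difference was -0.07, against 0.0008 for all genes tested, of which 49.7% lay below 0. At an unadjusted p under 0.05 no member was higher (all genes, 2.27%) and 2 were lower, Timp3 and Adamts10 (all genes, 2.4%). Groups did not overlap for 0 members on the higher side (all genes, 4.53%) and for 2 on the lower side, Timp3 and Adamts3 (all genes, 5.95%). After adjustment 0 members and 0% of all genes passed, by limma or by the methods' t-test, whereas an unadjusted p under 0.05 was reached by 4.66% of all genes (558) in limma and by 4.64% (555) in the methods' t-test. A log2 difference over 0.5 in size was seen for Timp1, Timp3 and Timp4, and 12 members lay within 0.1 of 0.

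**Figure D4:**
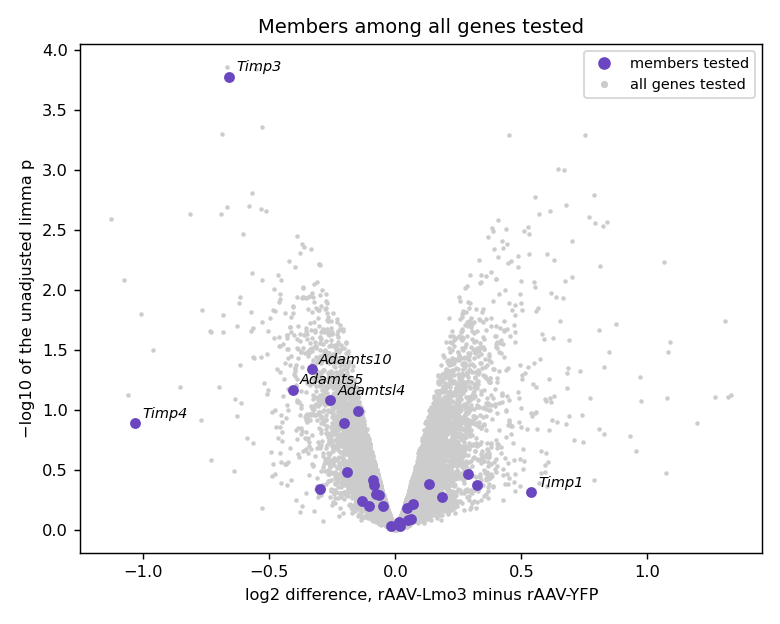
Log2 difference, rAAV-Lmo3 minus rAAV-YFP (horizontal), against -log10 of the unadjusted limma p (vertical) for 11963 genes tested (grey) and 28 members (purple). Timp3 stands near the top at a difference of -0.66, whereas most members lie at the base.

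Of 21 MMPs, 8 were bright enough to be tested, none had an unadjusted p under 0.05, and their groups overlapped throughout. The gelatinase Mmp2, which cleaves denatured collagen and collagen IV, read 1423, 709 and 1042 with rAAV-YFP and 1124, 1033 and 1643 with rAAV-Lmo3. The spread within each group exceeded the difference of 0.29 ± 0.28 (95% interval -0.39 to 0.96). It was 0.026 without rAAV-YFP 2, 0.53 without rAAV-YFP 1, 0.084 without rAAV-Lmo3 3 and 0.10 without both arrays that stood apart. Mmp9, the other gelatinase, was close to the dim limit with 105, 151 and 126 against 156, 108 and 90, and differed by -0.13 ± 0.23.

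Mmp14, the membrane-type protease that activates pro-MMP2, read 1115, 777 and 857 with rAAV-YFP and 686, 942 and 1304 with rAAV-Lmo3. Its difference of 0.06 ± 0.25 had a 95% interval from -0.53 to 0.65. Mmp19, a secreted protease of the basement membrane, read 1933, 1022 and 1387 against 1257, 1495 and 1514. Its difference of 0.02 ± 0.23 changed sign under a second quantile normalization (-0.012). Mmp28 (epilysin) differed by -0.10 ± 0.21 and Mmp23 by -0.09 ± 0.09.

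Mmp3 (stromelysin-1) cleaves many matrix proteins, whereas Mmp11 (stromelysin-3) is known for weak activity towards them. Mmp11 read 402, 388 and 315 with rAAV-YFP and 314, 348 and 662 with rAAV-Lmo3. Its difference of 0.19 ± 0.28 rested on rAAV-Lmo3 3, without which it was -0.15. Mmp3 read 176, 76 and 114 against 91, 168 and 195 and differed by 0.32 ± 0.38. It was 0.023 without rAAV-YFP 2, 0.10 without rAAV-Lmo3 3, 0.65 without rAAV-Lmo3 1 and 0.35 without both arrays that stood apart. None of the 4 collagenases was bright enough, and Mmp13 (collagenase 3) read 63 to 82 on the rAAV-YFP arrays and 68 to 84 on the rAAV-Lmo3 arrays.

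Of 18 ADAMTS proteases 12 were tested, and 8 of these lay below 0. Adamts5, a major proteoglycan-cleaving protease of cartilage and other tissues, read 4028, 5872 and 5862 with rAAV-YFP and 3451, 4705 and 3663 with rAAV-Lmo3. The rAAV-Lmo3 values were mostly lower, with overlap between rAAV-YFP 1 and rAAV-Lmo3 2. The difference was -0.41 ± 0.19 (unadjusted p = 0.0684 in limma; 95% interval -0.85 to 0.04). It was -0.23 ± 0.21 without the arrays that stood apart.

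Adamts10, which binds fibrillin microfibrils, read 494, 604 and 605 with rAAV-YFP and 382, 480 and 494 with rAAV-Lmo3. The groups met at 494, and the difference was -0.33 ± 0.14 (unadjusted p = 0.0458, adjusted p = 0.970 in limma). Without the arrays that stood apart it was -0.17 ± 0.12 (unadjusted p = 0.210 in limma), and the methods' t-test on all arrays gave an unadjusted p = 0.0950.

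Adamts3, a procollagen N-proteinase that also takes part in VEGF-C processing, read 241, 238 and 250 against 214, 234 and 210. The groups did not overlap, at a difference of -0.15 ± 0.08 (unadjusted p = 0.102 in limma; 0.0472 in the methods' t-test across genes). Its 16 probe sets did not share a direction, with 7 above 0 and 9 below, from -0.16 to 0.24. Adamts14, the other procollagen protease measured, differed by -0.08 ± 0.11.

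The other proteoglycan-cleaving members overlapped between groups. Adamts1, which cleaves versican and aggrecan, read 560, 958 and 1443 with rAAV-YFP and 588, 1080 and 656 with rAAV-Lmo3, a difference of -0.30 ± 0.38. Adamts9, a versican-cleaving protease, differed by -0.19 ± 0.18, and 6 of 6 of its probe sets lay below 0 with all arrays in the fit. Without the arrays that stood apart the differences were 0.0048 for Adamts9, -0.09 for Adamts1 and 0.26 for Adamts4, which differed by 0.05 ± 0.21 with them. Adamts15 differed by 0.07 ± 0.13. Of the proteases that cleave cartilage oligomeric matrix protein (COMP), Adamts12 differed by 0.13 ± 0.16 and Adamts7, with intensities of 228 to 246 on the 6 arrays, by 0.01 ± 0.07. Adamts17, a relative of Adamts10, differed by -0.05 ± 0.10 with 5 of 5 probe sets below 0 with all arrays in the fit. Its difference was 0.021 without rAAV-Lmo3 3. The Adamts17 probe sets ran from -0.15 to -0.0008, and those with mean log2 intensities of 6.46, 6.44 and 5.74 were below the dim limit. Probe sets of a gene read the same pools, so these counts for Adamts9 and Adamts17 do not hold separate results.

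ADAMTS-like proteins resemble the ADAMTS family but lack a protease domain, and 4 of 5 were tested. Adamtsl4, a fibrillin-binding protein, read 348, 442 and 369 with rAAV-YFP and 337, 348 and 283 with rAAV-Lmo3. The groups met at 348, and the difference was -0.26 ± 0.13 (unadjusted p = 0.0832 in limma). Adamtsl2 differed by -0.21 ± 0.12, Adamtsl5 by -0.08 ± 0.10 and Adamtsl1 by 0.05 ± 0.10.

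**Figure D5:**
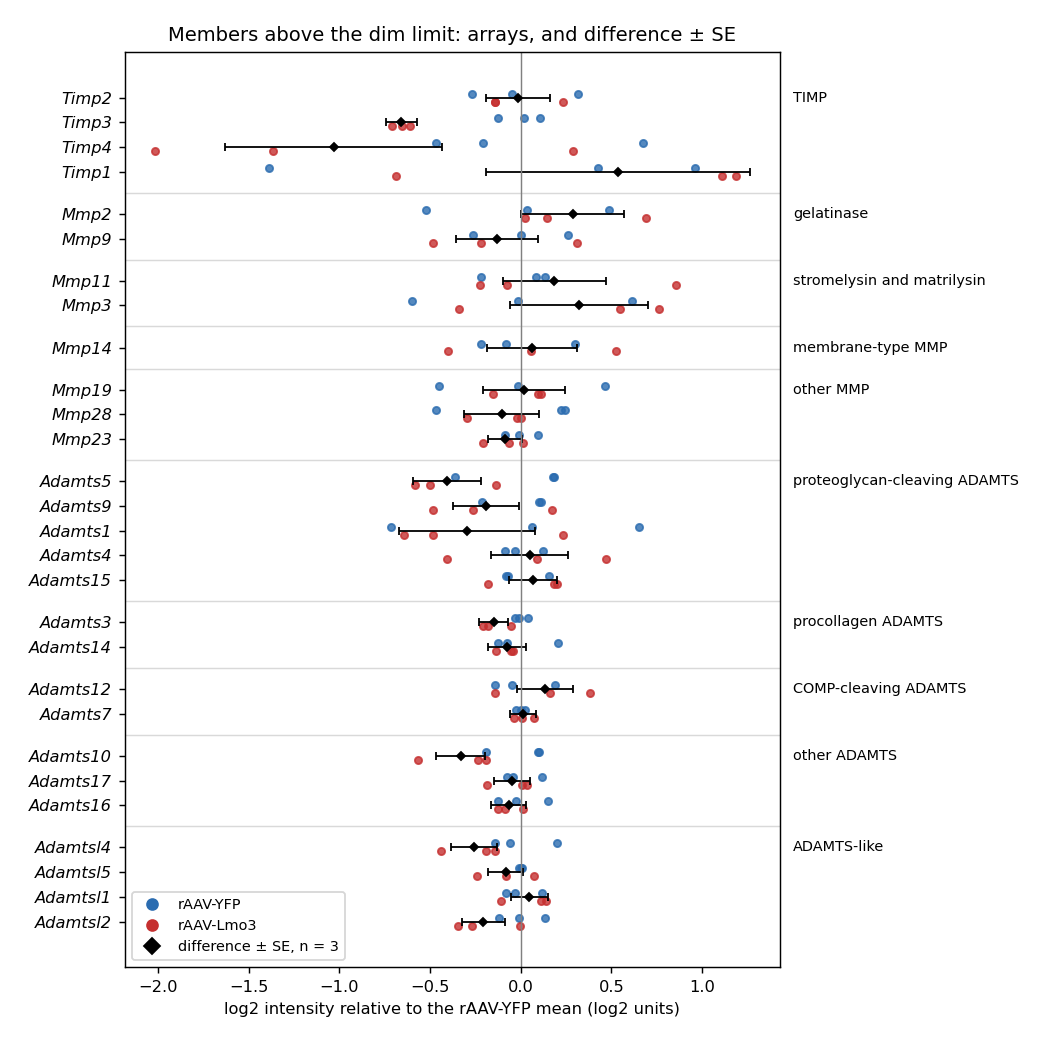
Log2 intensity of the 28 tested members on each array relative to the rAAV-YFP mean (horizontal axis, log2 units; blue, rAAV-YFP; red, rAAV-Lmo3; diamonds, difference ± SE, n = 3), grouped by family. Apart from Timp3 and Adamts3 the groups overlap, and Timp1 and Timp4 have the widest spread.

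The 20 members below the dim limit comprised 13 MMPs, 6 ADAMTS proteases and Adamtsl3. Their intensities ran from 15 to 121 and their differences from -0.23 to 0.25, with no test. Groups did not overlap for Mmp27 (95 to 97 on the rAAV-YFP arrays, 98 to 105 on the rAAV-Lmo3 arrays), Adamts8 (96 to 111 and 90 to 92) and Adamtsl3 (93 to 95 and 76 to 83). With no filter on dim genes, 3.41% of all 19938 genes were higher without overlap and 4.92% lower. All of these readings are dim, and for Mmp27 only 97 and 98 kept the groups apart. Just above the limit, at a mean log2 intensity of 6.83, lay Adamts16 (6.87) and Mmp9 (6.91), and just below it Adamts18 (6.75) and Mmp24 (6.70). Adamts13, the protease that cuts von Willebrand factor, read 82 to 92.

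Other genes of matrix proteolysis were counted from the same limma fit, where 4.66% of all genes tested had an unadjusted p under 0.05. Of 8 tested ADAM proteases Adam12 was the 1 with an unadjusted p under 0.05. It was reached by 0 of 5 tested plasminogen system genes and by 0 of 9 tested other inhibitors and activators, and Bmp1, the procollagen C-proteinase, differed by -0.05 ± 0.18. Among 11 tested substrates of ADAMTS proteases 1 did, Thbs1 (thrombospondin-1), at 3061, 3479 and 1738 with rAAV-YFP and 1650, 1595 and 1529 with rAAV-Lmo3. Its values did not overlap, and the difference was -0.73 ± 0.25 (unadjusted p = 0.0222, adjusted p = 0.970 in limma).

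Markers of cell types that also express matrix proteases and inhibitors were read on the same arrays, and none reached an unadjusted p under 0.05. Of all genes tested, 4.66% reached it in limma and 49.7% lay below 0. Markers of a list were read on the same arrays, so a count of their directions does not hold separate results. Of 5 endothelial markers 5 lay below 0 (median -0.07), with a list score of -0.12 to 0.22 in the rAAV-YFP group and -0.26 to 0.08 in the rAAV-Lmo3 group. Of 6 fibroblast and progenitor markers 4 lay below 0 (median -0.04; scores -0.27 to 0.09 and -0.06 to 0.18), and of 6 smooth muscle and pericyte markers 5 (median -0.15; scores -0.05 to 0.16 and -0.48 to 0.16). Of 5 tested mesothelial markers 5 lay below 0 (median -0.37), and their score was 0.91 on rAAV-YFP 3 and -0.45 to 0.05 on the other arrays. Macrophage markers were above 0 for 6 of 6 (median 0.13) and tested mast cell markers for 3 of 3 (median 0.40; scores -0.67 to 0.31 and -0.45 to 0.66). S100a8, the 1 tested neutrophil marker, differed by 0.62, and the neutrophil score is that of this gene alone (scores -0.53 to -0.04 and -0.42 to 0.68). The other listed neutrophil markers were below the dim limit and differed by 0.20 (S100a9), -0.03 (Ly6g), -0.14 (Mpo) and 0.10 (Elane). Adipocyte markers lay below 0 for 5 of 6 (median -0.05; scores -0.04 to 0.15 and -0.16 to 0.05), among them Lep without overlap (-0.28, unadjusted p = 0.0565 in limma). The part of any of these in the values of Timp3 and the other members was not tested.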

How the data were processed

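Affymetrix mouse Gene ST arrays were hybridized with total RNA of eWAT, 3 per group, each a pool of 2 mice. Groups and array numbers follow the labels, whose titles name rAAV-YFP and whose treatment protocol names rAAV-LacZ as control. The deposited values are intensity values per probe set, made by the authors with RMA in Affymetrix Expression Console 1.1 and rounded on the linear scale. Arrays give no counts, so their number limits precision, and p-values measure the spread between pools.

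Here log2 was taken. Of 35556 probe sets, 21789 had 1 symbol, 1621 several and 12146 none. The brightest probe set per symbol was kept (19938 genes, 73 probe sets for 48 members) and the dimmest 40% of genes left out (below 114). limma 3.58.1 (R 4.3.3) was fitted to the other 11963 genes, two-sided, with Benjamini-Hochberg adjustment at 0.05. The methods' t-test was run beside it, and single values were compared by exact two-sided permutation over arrays. Intensities of different probe sets were not compared as levels. Intervals are at 95% and unadjusted. The steps were tested on simulated data.

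Members, lists and alternatives were chosen with earlier results of these data known. Named were the TIMPs, members with an unadjusted p under 0.05 or without overlap, the brightest of each subfamily, those at the dim limit, the tested targets of TIMP3, its partners and the synapsin genes. Further members were named to account for each family. Alternatives were median centring, a second quantile normalization, array weights, a trended robust prior, a replicate block, leaving out each array, no filter, a filter on the dimmest 60%, and averaging the probe sets of a gene.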

Additional observations from a re-analysis of the deposited data

How the results depend on the processing

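Timp3 stayed lower under every alternative run, with differences of -0.72 to -0.61 when any 1 array was left out and a lowest adjusted p of 0.234 (array weights). After adjustment 0 genes passed under every alternative. Of 496 recomputed gene values 460 kept direction and side of the threshold and 36 changed sign; causes were not tested.

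Members lower at an unadjusted p under 0.05 numbered 1 with median centring and 1 to 4 without any 1 array (1 without rAAV-YFP 2 or 3, 4 without rAAV-YFP 1 or rAAV-Lmo3 2). Those without overlap numbered 4 lower and 1 higher with no filter, where 48 members were fitted, 1 lower with the dimmest 60% left out or with the mean over probe sets, and 2 to 6 lower and 0 to 2 higher without any 1 array. Of all genes, 8.41% to 12.5% were then lower without overlap and 6.59% to 12.6% higher. The 6 lower members came without rAAV-YFP 1 (21.4% of members, all genes 12%) and without rAAV-Lmo3 2 (21.4%, all genes 10.7%), and the 2 higher without rAAV-Lmo3 1 (all genes 10.3%). Without both arrays that stood apart, 1 was higher at an unadjusted p under 0.05 and 2 were higher without overlap (all genes 13.4%). In that setting 3 were lower without overlap (10.7% of members, all genes 16.7%). With no filter the shares of all genes were 4.92% lower and 3.41% higher, and with the dimmest 60% left out or the mean over probe sets 6.34% and 5.87% lower. Genes at an unadjusted p under 0.05 numbered 840 with no filter, and 263 without rAAV-YFP 2 and 283 without rAAV-Lmo3 3.

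Sign turned with median centring for Timp2 (0.0074) and Kdr (0.011), with a second quantile normalization for Mmp19 (-0.012), with array weights for Mmp19 (-0.015) and Kdr (0.14), and without both arrays that stood apart for Mmp19 (-0.12), Adamts9 (0.0048), Adamts16 (0.018), Adamtsl1 (-0.0019), Adam33 (0.028) and Kdr (0.20). Of the 28 tested members the sign turned for 4 without both arrays and for 14 without some single array. The ratio of Timp3 to Adam33 moved to -0.65 and -0.66 under the second and the last of these.

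Without any 1 array the ranges that crossed 0 were -0.16 to 1.15 for Timp1, -0.15 to 0.14 for Timp2, -0.35 to 0.044 for Mmp9, -0.15 to 0.39 for Mmp11, -0.17 to 0.29 for Mmp14, -0.21 to 0.25 for Mmp19, -0.21 to 0.078 for Adam10, -0.050 to 0.37 for Adam17, -0.13 to 0.014 for Adam33, -0.65 to 0.028 for Adamts1, -0.16 to 0.28 for Adamts4, -0.097 to 0.027 for Agtr2, -0.18 to 0.14 for Kdr, -0.067 to 0.15 for Syn1, -0.080 to 0.019 for Syn2, -0.024 to 0.16 for Syn3 and -0.094 to 1.01 for the ratio of Timp3 to Timp4. Ranges also crossed 0 for Adamts14 (-0.14 to 0.026), Adamts16 (-0.13 to 0.0081), Adamts17 (-0.091 to 0.021) and Mmp28 (-0.34 to 0.019). The same held for Adamts7 (-0.016 to 0.039) and Adamtsl1 (-0.00026 to 0.12).

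Array numbers are shared between the groups, and the labels do not say whether they pair the samples. Deviations of arrays with the same number correlated at -0.55, -0.40 and 0.26. With 3 arrays per group, of which rAAV-YFP 2 and rAAV-Lmo3 1 stood apart, these values cannot decide it. No pairing was used in the main fit. With the replicate block the Timp3 difference stayed at -0.66 (unadjusted p = 0.00199 in limma), 3 members were lower at an unadjusted p under 0.05 and 453 genes reached it.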

Other observations

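Members that lie next to each other on a chromosome are given here as values. Adamts1 and Adamts5 are neighbours and differed by -0.30 and -0.41 on the log2 scale, both with overlapping groups. Adamts15, at 0.07, neighbours Adamts8, which was below the dim limit. On chromosome 9 a row of 9 members of the MMP family holds Mmp3, the 1 gene of them that was bright enough to be tested, and the others read 15 to 105.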
